A study of Mus musculus with 9 samples.

Results

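Mitochondrial ribosomal protein genes, the nuclear genes named Mrpl and Mrps for the large and small subunit of the ribosome inside mitochondria, were followed in a mouse acute myeloid leukaemia driven by the MLL-AF9 fusion. They were chosen by symbol alone, as Mrpl or Mrps followed by a number, among probe sets that name a single gene, with the brightest probe set standing for each gene. This gave 75 genes of 20680 in all, 46 Mrpl and 29 Mrps. The arrays compared 4 WT leukaemias with 5 Ezh2-null leukaemias, both on the C57B/6 background. Leukaemic colonies carrying a retrovirus with MLL-AF9 and GFP were replated and injected into sublethally irradiated mice, which were then given pIpC to turn on Cre in both genotypes. Marrow sorted for GFP and YFP, the second marking Cre activity, was passed to irradiated secondary recipients, and each array holds GFP+/YFP+ marrow cells sorted from these leukaemic mice. The sources used here do not give the Cre line, the age of the mice, the primary leukaemia that each recipient received, or whether control cells carried an Ezh2 allele that Cre can delete. The labels call the arrays of a genotype biological replicates, and if some share an origin the p-values measure in part a technical spread.

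The mitochondrial ribosome translates the few messages of the mitochondrial genome, all of which encode subunits of the respiratory chain and ATP synthase. Its RNAs come from mitochondrial DNA, whereas every one of its proteins is encoded in the nucleus, made in the cytosol and imported. Part of these proteins descend from bacterial ribosomal proteins and the remainder are found in mitochondria alone. Human acute myeloid leukaemia cells are known to be sensitive to drugs that block mitochondrial translation. Ezh2 is the histone methyltransferase of the gene-silencing complex PRC2.

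Values are log2 intensities of deposited, RMA-normalized arrays, and changes are Ezh2-null minus WT on that scale. Ezh2 itself read 9.79, 10.61, 10.72 and 10.89 on WT replicates 1 to 4 and 8.95 to 9.36 on the Ezh2-null arrays, so that it fell by 1.30 (SE 0.21, limma adjusted p = 0.0373). This call was lost in 8 of 19 alternative fits, including 6 of the 9 that leave out 1 array and the one without WT replicates 3 and 4 (limma adjusted p = 0.149). Those 2 arrays stood apart from the rest and were the most alike of all pairs, with a correlation across genes of 0.988. The other WT pairs ran from 0.956 to 0.975 and the Ezh2-null pairs from 0.977 to 0.984. Array levels of different genes cannot be set against each other, so the sorted cell type was not checked by level. Between genotypes, 0 of 10 myeloid and leukaemia genes (Cebpa, Kit, Meis1, Mpo and Hoxa9 among them) passed. Their changes ran from -1.26 to 0.34, and 1 was lower at an unadjusted limma p under 0.05 (8.97% of all genes were). Of 6 T cell and 6 erythroid genes 0 passed, with 0 and 0 at that unadjusted threshold. None of 5 B cell or 6 stromal and endothelial genes passed, with 0 and 1 at that unadjusted threshold. Of 14 neutrophil maturation genes 1 passed, higher (0.29% of all genes did), and 9 were higher at an unadjusted limma p under 0.05 (8.2%). All 14 were positive, with a median of 1.05. Without WT replicates 3 and 4 their median was 0.19, with 3 higher at an unadjusted limma p under 0.05 (5.64% of all genes). The main results are given with and without WT replicates 3 and 4. In sorted bulk cells, fewer cells of a kind and less RNA per cell cannot be told apart.

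Transcripts for mitochondrial ribosomal proteins were on average lower in Ezh2-null leukaemia by a small amount, without any gene passing the test. Of 75 genes, 73 had a negative log2 change and 2 a positive one, with a median of -0.32 and quartiles of -0.49 and -0.19, where 46.7% of all genes were negative with a median of 0.02. In limma 0 of the 75 had a Benjamini-Hochberg adjusted p under 0.05, which 0.498% of all 20680 genes had (0.208% lower and 0.29% higher), and the smallest adjusted p was 0.0763. At an unadjusted p under 0.05 there were 19 lower genes (25.3%, against 8.97% of all genes) and 0 higher ones (against 8.2%). On these brightest probe sets no change reached -1, and the furthest, that of Mrpl47, was 1.85-fold. Without WT replicates 3 and 4 the picture was different: 34 genes were negative, the median was 0.02 against -0.02 for all genes, and 6 genes were lower and 3 higher at an unadjusted p under 0.05 (limma), against 6.26% and 5.64% of all genes. In limma 0 of the 75 then passed (0.295% of all genes did), with a smallest adjusted p of 0.212. Some other fits did pass members: 5 without WT replicate 1 (1.17% of all genes), 2 without WT replicate 2 (1.6%) and 13 with array weights (4.87%), which gave WT replicates 1 and 2 the lowest weights.

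**Figure D1:**
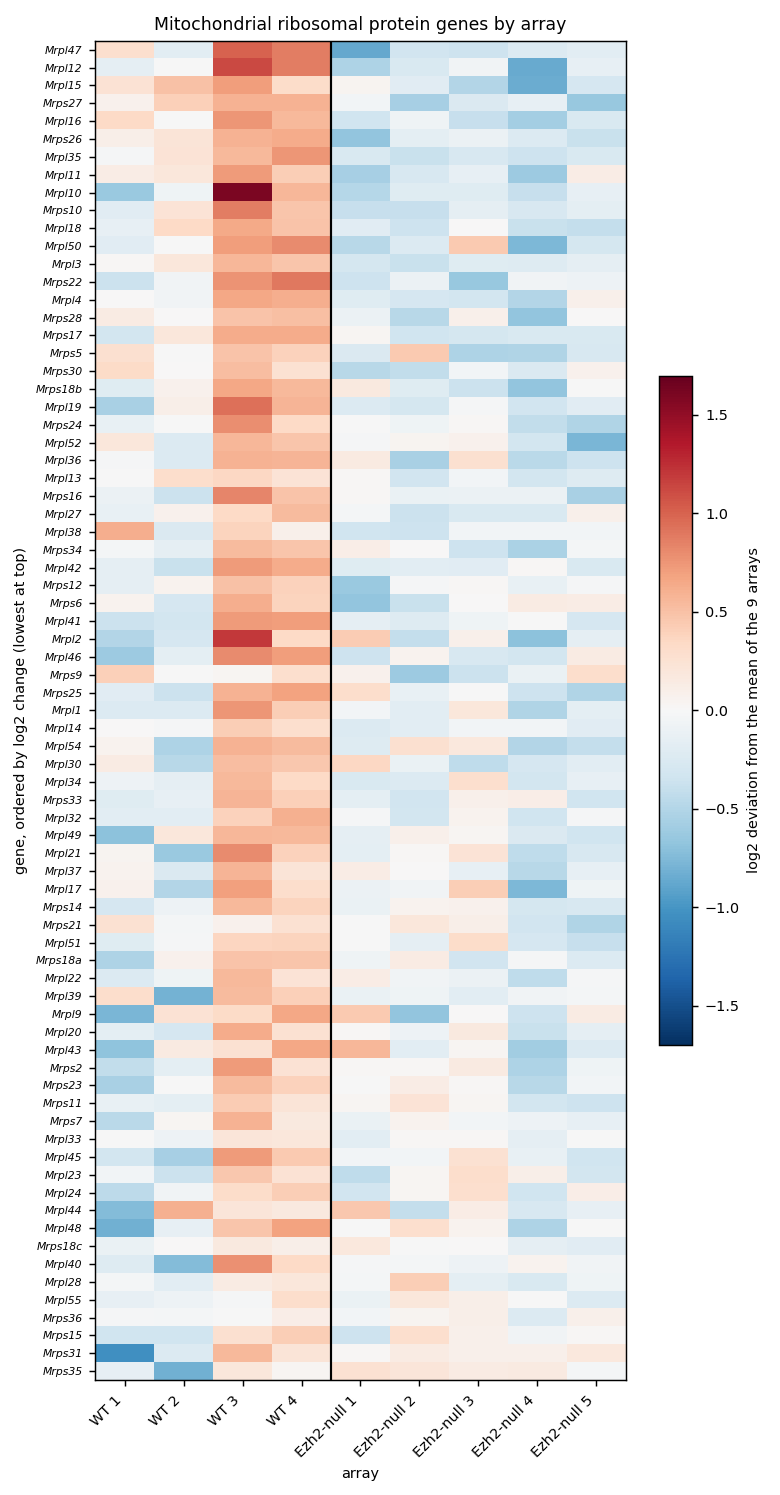
Log2 deviation of each of the 75 genes (rows, ordered by log2 change) from its own mean over the 9 arrays, shown by colour, with WT arrays left of the black line and Ezh2-null arrays right of it. The red columns are WT replicates 3 and 4, while WT replicates 1 and 2 are in most rows as pale or as blue as the Ezh2-null arrays, except in rows near the top.

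The average was unevenly spread over the WT arrays. The mean deviation of the 75 genes from their own 9-array means stood at -0.15 for WT replicate 1, -0.10 for WT replicate 2, 0.56 for WT replicate 3 and 0.44 for WT replicate 4. For Ezh2-null replicates 1 to 5 it stood at -0.11, -0.13, -0.04, -0.30 and -0.17, a range that takes in WT replicates 1 and 2. In 55 of the 75 genes (73.3%, against 13.7% of all genes) both WT replicates 3 and 4 were above every other array. The mean of replicates 3 and 4 exceeded that of replicates 1 and 2 in 74 genes, by a median of 0.65 and by up to 1.43, with Mrps9 at -0.04 as the exception. Other gene groups and RNA controls were read on the same arrays. For 14 neutrophil maturation genes the mean deviation was 0.03, 0.11, -1.73 and -1.21 in the order of the WT replicates and ranged from -0.20 to 0.93 in Ezh2-null leukaemias. For 18 G2/M genes it was 0.12, 0.10, 0.54 and 0.49 in WT and ranged from -0.53 to -0.07 in Ezh2-null leukaemias. All 18 were negative, with a median change of -0.58, and 1 passed in limma, lower (0.208% of all genes did). At an unadjusted limma p under 0.05, 14 were lower (8.97% of all genes were). Without WT replicates 3 and 4 their median was -0.34, with 5 lower (6.26% of all genes). RNA integrity was read from Gapdh control probe sets at both ends of the transcript: the log2 difference, 3' minus 5' end, was 1.80, 1.69, 1.47 and 1.55 in the order of the WT replicates, and from 1.56 to 1.65 in Ezh2-null leukaemias. The same difference for Actb did not set these arrays apart, at -0.10, 0.02, -0.07 and -0.08 in WT and from -0.09 to -0.03 in Ezh2-null leukaemias. The part of these in the ribosomal protein values was not tested.

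In 7 genes every Ezh2-null array lay under every WT array (9.33% of the 75, against 2.87% of all genes), and in no gene did it lie above (against 3.03%). These were Mrps27, Mrpl35, Mrpl16, Mrpl15, Mrps26, Mrpl3 and Mrpl14, the first 6 of them with an adjusted p from 0.0763 to 0.0843. They were therefore also below WT replicates 1 and 2, which only the same 7 genes (9.33%) were, against 9.26% of all genes. Without WT replicates 3 and 4 the first 6 had an unadjusted p under 0.05 (limma, adjusted p from 0.242 to 0.342). They are the 6 lower genes of the 75 in that comparison, where 6.26% of all genes were lower. These genes were picked for lying under WT replicates 1 and 2 as well, so this is no separate support.

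Mrps27 encodes a small-subunit protein with pentatricopeptide repeats that has no bacterial counterpart. Its single probe set read 8.97, 9.30, 9.48 and 9.49 on the WT arrays and 8.85, 8.32, 8.64, 8.75 and 8.25 on the Ezh2-null arrays. The groups were separate, though WT replicate 1 and Ezh2-null replicate 1 were close. The change was -0.75 (SE 0.17, limma adjusted p = 0.0763), and -0.57 without WT replicates 3 and 4. Mrps26, another small-subunit protein gene without a bacterial counterpart, read 10.02, 10.14, 10.51 and 10.55 in WT and 9.25, 9.76, 9.81, 9.68 and 9.55 in Ezh2-null leukaemias. All WT arrays were above all Ezh2-null arrays, and the change was -0.70 (SE 0.16, adjusted p = 0.0825), or -0.47 without WT replicates 3 and 4.

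The other genes with separate groups encode large-subunit proteins with bacterial homologues. Mrpl35 read 8.30, 8.56, 8.87 and 9.08 on WT arrays and 8.06, 7.95, 8.06, 7.97 and 8.06 on Ezh2-null arrays, which were nearly level. Its change was -0.68 (SE 0.15, adjusted p = 0.0769), or -0.41 without WT replicates 3 and 4. Mrpl16 read 11.75, 11.40, 12.17 and 11.97 in WT and 11.08, 11.34, 11.02, 10.83 and 11.16 in Ezh2-null leukaemias, with WT replicate 2 and Ezh2-null replicate 2 close together. Its change of -0.74 (SE 0.17, adjusted p = 0.0785) became -0.49 without WT replicates 3 and 4, and in the batch-adjusted table it passed (adjusted p = 0.0428), the single gene of the 75 to do so there (0.977% of all genes passed).

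Mrpl15 was not set apart by WT replicate 4, which read about as low as replicate 1. It read 10.64, 10.88, 11.10 and 10.70 on WT arrays and 10.43, 10.20, 9.89, 9.54 and 10.10 on Ezh2-null arrays. The change was -0.80 (SE 0.18, adjusted p = 0.0817) with all arrays and -0.73 without WT replicates 3 and 4. Of its 8 probe sets, 7 had a negative change and 4 an unadjusted p under 0.05, and the positive one (0.15) was among the 2 dimmest. Mrpl3, whose bacterial homologue reaches towards the peptidyl transferase centre, read 10.65, 10.83, 11.19 and 11.10 in WT and 10.34, 10.24, 10.42, 10.41 and 10.48 in Ezh2-null leukaemias. The groups were separate, with a change of -0.56 (SE 0.13, adjusted p = 0.0843), or -0.36 without WT replicates 3 and 4. Of its other 2 probe sets one stood at -0.54 and one at 0.04. Mrpl14 read 7.23, 7.20, 7.63 and 7.51 in WT and 6.99, 7.04, 7.18, 7.17 and 7.03 in Ezh2-null leukaemias. Its groups touched most closely, and its change was the smallest of the 7, at -0.31 (SE 0.12, adjusted p = 0.234), and at -0.13 without WT replicates 3 and 4.

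**Figure D2:**
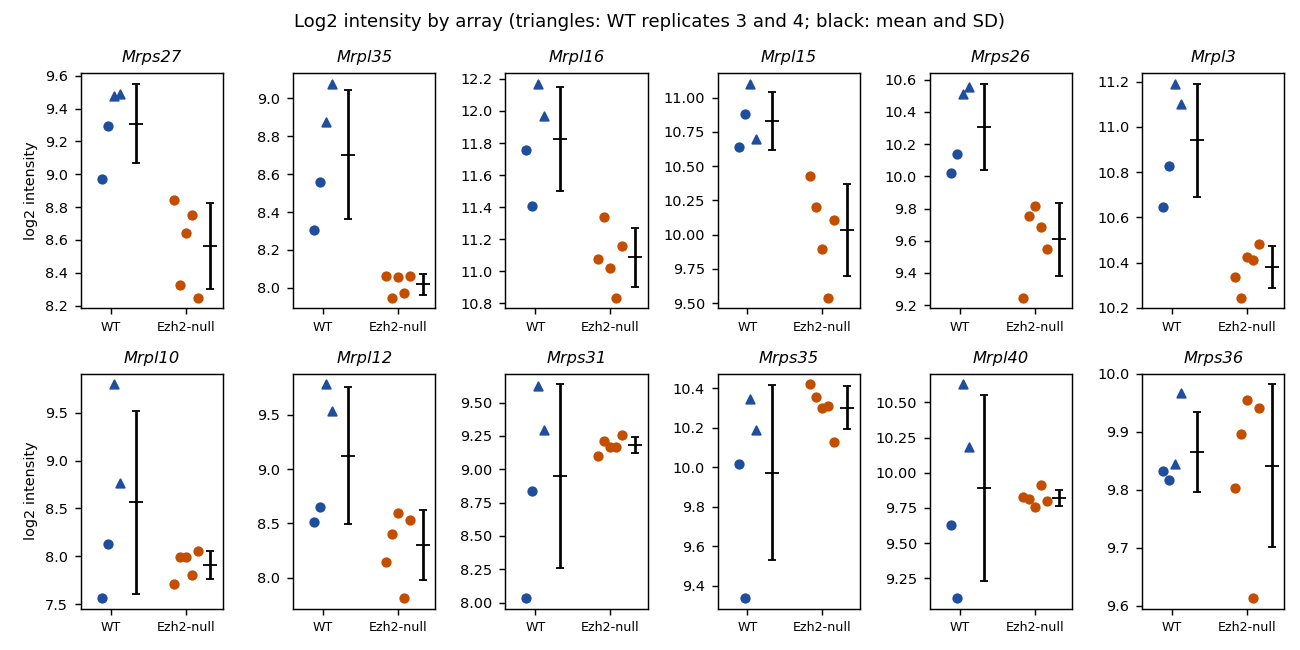
Log2 intensity of 12 genes on each array, with WT in blue (triangles for replicates 3 and 4, circles for replicates 1 and 2) and Ezh2-null in orange, and the mean and SD in black. The axes differ between panels and do not start at 0. In the first 6 panels the groups do not overlap, in Mrpl10, Mrpl12, Mrps31 and Mrpl40 the WT arrays spread widely around or above the Ezh2-null arrays, and Mrps36 hardly varies.

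Promoter windows are shown for 6 of these 7 genes, Mrpl15 being the exception, because they were lower on every Ezh2-null array. The windows run from 250 bases before to 50 after the gene start, from RefSeq on GRCm38.p6, and 66 of the 75 genes had at least 1, giving 72 windows. Capitals mark letters of 5 motifs searched on both strands: CCGGAAG (ETS factors such as GABPA), AAGATGG (YY1), CACGTG (the E-box of Myc), CCAAT and GGGCGG (the GC box). Overlapping matches run together. Mrps31, which was not lower, is shown for contrast.
Mrps27 (chr13:99344536-99344835, plus strand): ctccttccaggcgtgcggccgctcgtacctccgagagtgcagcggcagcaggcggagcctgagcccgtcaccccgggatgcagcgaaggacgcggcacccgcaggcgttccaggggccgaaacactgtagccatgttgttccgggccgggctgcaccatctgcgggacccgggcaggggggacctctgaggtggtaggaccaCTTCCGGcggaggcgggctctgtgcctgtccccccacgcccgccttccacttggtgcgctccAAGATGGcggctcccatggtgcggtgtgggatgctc
Mrpl35 (chr6:71823735-71824034, minus strand): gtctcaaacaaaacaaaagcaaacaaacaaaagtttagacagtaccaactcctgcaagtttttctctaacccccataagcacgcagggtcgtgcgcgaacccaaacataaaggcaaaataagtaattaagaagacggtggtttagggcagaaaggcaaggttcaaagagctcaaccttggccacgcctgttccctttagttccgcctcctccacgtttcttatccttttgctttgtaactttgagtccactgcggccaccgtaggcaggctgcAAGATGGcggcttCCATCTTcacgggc
Mrpl16 (chr19:11770165-11770464, plus strand): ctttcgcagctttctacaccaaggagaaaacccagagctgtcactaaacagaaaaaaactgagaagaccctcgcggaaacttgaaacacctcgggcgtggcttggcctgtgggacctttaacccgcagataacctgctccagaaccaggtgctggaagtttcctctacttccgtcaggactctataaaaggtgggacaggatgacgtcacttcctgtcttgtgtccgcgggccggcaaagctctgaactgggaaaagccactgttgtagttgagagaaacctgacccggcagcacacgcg
Mrps26 (chr2:130563507-130563806, plus strand): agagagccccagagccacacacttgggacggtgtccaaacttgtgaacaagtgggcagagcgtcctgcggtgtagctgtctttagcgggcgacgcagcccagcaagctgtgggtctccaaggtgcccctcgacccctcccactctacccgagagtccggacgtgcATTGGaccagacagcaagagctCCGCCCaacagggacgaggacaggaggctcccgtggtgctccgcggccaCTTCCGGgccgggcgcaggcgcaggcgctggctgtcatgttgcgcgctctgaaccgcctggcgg
Mrpl3 (chr9:105053018-105053317, plus strand): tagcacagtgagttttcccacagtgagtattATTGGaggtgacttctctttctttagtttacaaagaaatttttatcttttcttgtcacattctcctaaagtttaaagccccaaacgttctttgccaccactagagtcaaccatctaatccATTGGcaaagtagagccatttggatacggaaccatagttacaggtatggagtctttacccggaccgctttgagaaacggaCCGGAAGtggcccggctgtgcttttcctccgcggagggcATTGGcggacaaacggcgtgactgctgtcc
Mrpl14 (chr17:45686099-45686398, plus strand): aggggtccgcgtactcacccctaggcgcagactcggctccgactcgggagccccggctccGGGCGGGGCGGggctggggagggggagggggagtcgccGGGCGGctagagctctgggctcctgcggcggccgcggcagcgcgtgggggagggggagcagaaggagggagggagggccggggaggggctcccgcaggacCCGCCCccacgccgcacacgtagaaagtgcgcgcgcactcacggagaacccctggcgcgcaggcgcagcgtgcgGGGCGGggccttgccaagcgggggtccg
Mrps31 (chr8:22411090-22411389, plus strand): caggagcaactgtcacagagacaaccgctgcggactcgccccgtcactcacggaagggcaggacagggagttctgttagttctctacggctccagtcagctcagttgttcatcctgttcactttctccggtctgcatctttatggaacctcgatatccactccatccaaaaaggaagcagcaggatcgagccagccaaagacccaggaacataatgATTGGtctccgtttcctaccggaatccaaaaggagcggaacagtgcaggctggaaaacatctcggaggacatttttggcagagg
Mrps27, Mrps26 and Mrpl3 each held 1 ETS motif shortly before the gene start. Besides it Mrps27 held 1 YY1 motif after the start, Mrps26 held 1 CCAAT and 1 GC box, and Mrpl3 held 3 CCAAT. Mrpl35 held 2 YY1 motifs after the start, and Mrpl14 held 5 GC boxes and no other motif. The window of Mrpl16 held none of the motifs searched, and that of Mrps31 held 1 CCAAT. Over all 72 windows the ETS motif was in 31.9% (against 11.6% of 21263 windows of protein-coding genes), the YY1 motif in 18.1% (6.24%), the E-box in 9.72% (7.84%), CCAAT in 40.3% (38.2%) and the GC box in 52.8% (46.2%). Median GC content was 58.2% in these windows and 56.3% in all. The 23 genes with an ETS motif had a median change of -0.28 and the 43 without had -0.31, and for YY1 the medians were -0.35 in 13 genes and -0.29 in 53.

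Mitochondrial ribosomal protein genes often sat head to head with a neighbour, with starts on opposite strands within 1000 bases. This held for 23 of 66 genes (34.8%, against 8.48% of 17492 protein-coding genes with a window). Mrpl46 and Mrps11 start 42 bases apart and stood at -0.33 and -0.17. Mrps27 starts 108 bases from Ptcd2, another pentatricopeptide repeat gene, which stood at -0.39. Mrpl47 faces the complex I gene Ndufb5 (-0.89 and -0.52), and Mrps12 faces Sars2, the mitochondrial seryl-tRNA synthetase gene (-0.35 and 0.07). Among the 20 genes whose neighbour was measured, the nearest neighbours had a median change of -0.22, against -0.33 for the ribosomal protein genes themselves. Of these neighbours 12 were negative (46.7% of all genes were). At an unadjusted limma p under 0.05, 2 were lower and 1 higher, against 8.97% and 8.2% of all genes. Mrpl46 and Mrps11 count here as each other's neighbour, so the 2 sets compared are not fully separate.

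The medians of the subunits were close, and their difference was not tested. The 46 Mrpl genes, all negative, had a median of -0.31, and the 29 Mrps genes, 27 of them negative, had -0.33. Without WT replicates 3 and 4 the medians were 0.05 and -0.04. Some symbols do not match the place of the protein in ribosome structures: Mrps18a and Mrps30 belong to the large subunit, and Mrps36 encodes a component of the oxoglutarate dehydrogenase complex. Mrps36 had the smallest spread within genotype of the 75 genes, with 9.83, 9.82, 9.84 and 9.97 in WT and 9.80, 9.90, 9.95, 9.61 and 9.94 in Ezh2-null leukaemias. The groups lay on top of each other, at a change of -0.02. Mrps30 stood at -0.50 (SE 0.15, limma adjusted p = 0.148) and Mrps18a at -0.23 (SE 0.21, adjusted p = 0.604). Sorted by structure, 48 large-subunit genes had a median of -0.31 and 26 small-subunit genes -0.34.

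Proteins with and without a bacterial counterpart were close on average as well. The 46 genes with a bacterial homologue had a median of -0.33, with 16 lower at an unadjusted p under 0.05 (34.8%). The 28 mitochondria-specific genes had -0.29, with 3 lower (10.7%), where 8.97% of all genes were lower at that threshold. Without WT replicates 3 and 4 the medians were -0.01 and 0.10. At an unadjusted p under 0.05 (limma) 3 genes were then higher, against 5.64% of all genes. These were Mrps31, Mrps35 and Mrpl40, all of the mitochondria-specific class. The difference between the classes was not tested.

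**Figure D3:**
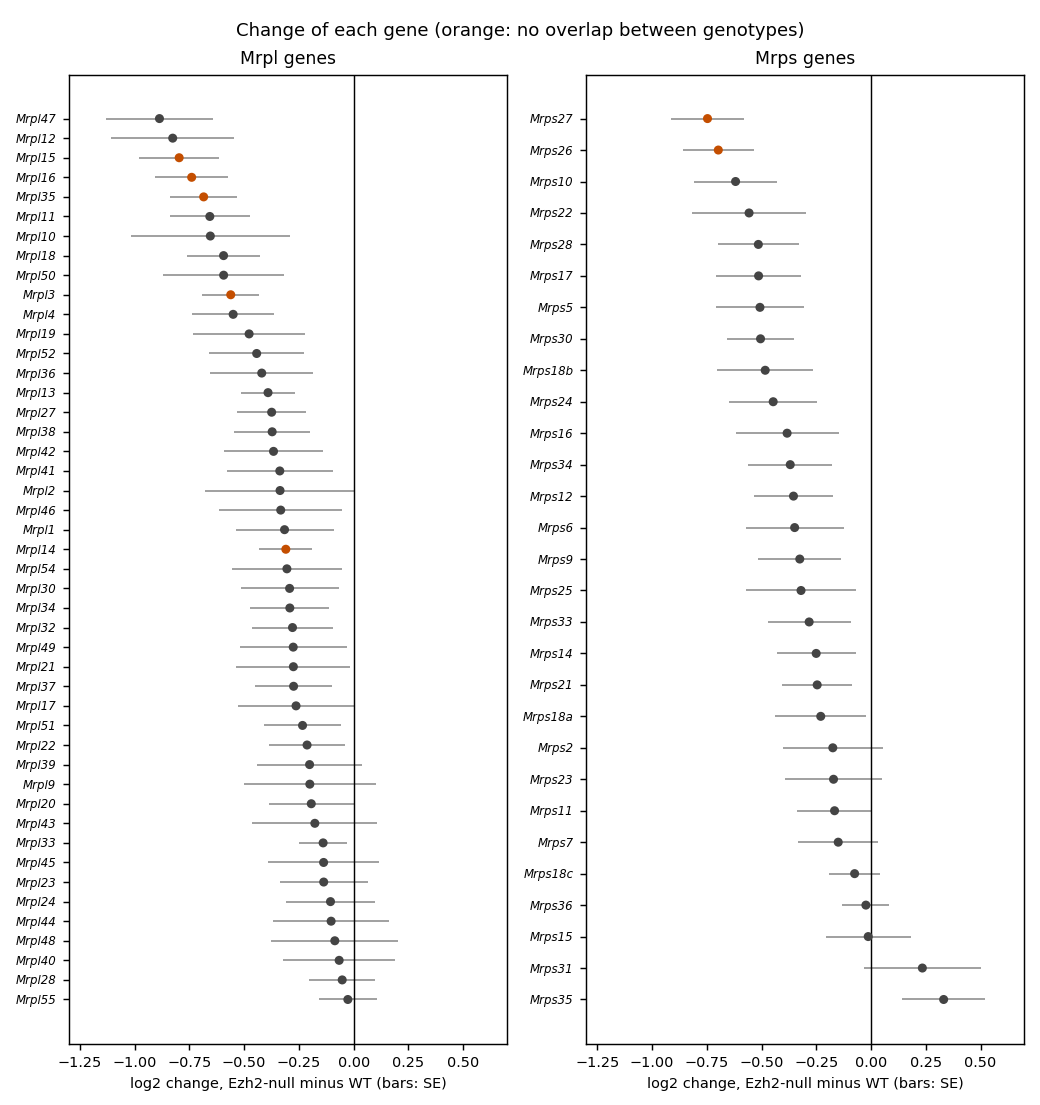
Log2 change (Ezh2-null minus WT, x axis) of each Mrpl gene (left) and each Mrps gene (right), with bars for the limma SE. Orange points mark the 7 genes whose genotypes did not overlap, and the points right of 0 are Mrps31 and Mrps35.

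A further 12 genes had overlapping groups but an unadjusted p under 0.05. Mrpl47 had the furthest change of all, at -0.89 (SE 0.25, limma adjusted p = 0.124), with 8.78, 8.30, 9.48 and 9.35 in WT and 7.62, 8.16, 8.13, 8.26 and 8.30 in Ezh2-null leukaemias. WT replicate 2 and Ezh2-null replicate 5 met at the same value, and its 2 dimmer probe sets stood at 0.10 and -0.07. Mrpl12, a protein of the ribosomal stalk that in human cells also binds the mitochondrial RNA polymerase, read 8.52, 8.65, 9.78 and 9.54 in WT and 8.14, 8.40, 8.60, 7.81 and 8.53 in Ezh2-null leukaemias. WT replicates 3 and 4 were more than a log2 unit above WT replicates 1 and 2, and the change of -0.83 (SE 0.28, adjusted p = 0.183) became -0.29 without them. Mrpl11, at the base of the stalk, stood at -0.66 (adjusted p = 0.125), and 3 of its 4 probe sets had an unadjusted p under 0.05. The remaining 9 were Mrps10 (-0.62), Mrpl18 (-0.59), Mrpl4 (-0.55), Mrps28 (-0.51), Mrps17 (-0.51), Mrps5 (-0.51), Mrps30 (-0.50), Mrpl13 (-0.39) and Mrpl27 (-0.37).

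In the other 56 genes the p was not under 0.05. Mrpl10, which anchors the stalk, read 7.56, 8.13, 9.80 and 8.76 in WT and 7.71, 7.99, 7.99, 7.80 and 8.05 in Ezh2-null leukaemias. Its 5 Ezh2-null arrays lay between WT replicates 1 and 2, and the change of -0.65 (SE 0.36, adjusted p = 0.384) became 0.06 without replicates 3 and 4. Besides Mrpl10, 7 of these genes lay below -0.4: Mrpl50, Mrps22, Mrps18b, Mrpl19, Mrps24, Mrpl52 and Mrpl36. Between -0.4 and -0.2 lay 28 genes, among them Mrps12, a protein of the decoding centre (-0.35, adjusted p = 0.340), Mrpl42 (-0.37), Mrpl54 (-0.30), Mrpl39 (-0.20), Mrpl9 (-0.20) and Mrpl2, a homologue of a bacterial protein needed for peptidyl transfer (-0.34). Mrpl2 read 8.63, 8.85, 10.33 and 9.47 in WT and 8.43 to 9.56 in Ezh2-null leukaemias, so that WT replicate 3 was the single WT array above all Ezh2-null arrays. Another 18 genes lay between -0.2 and 0, with Mrpl33 (-0.14), Mrpl45, which ties the ribosome to the inner membrane (-0.14), Mrpl44 of the RNase III fold (-0.10), Mrpl48 (-0.09), Mrps18c (-0.08) and Mrpl40 (-0.07).

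Mrps31 and Mrps35, both small-subunit proteins without a bacterial counterpart, were the 2 genes with a positive change. Mrps31 read 8.03, 8.84, 9.63 and 9.29 in WT and 9.10, 9.21, 9.17, 9.17 and 9.26 in Ezh2-null leukaemias. The Ezh2-null arrays were tightly grouped inside the wide WT range, above WT replicates 1 and 2 and below 3 and 4. Its change was 0.23 (SE 0.27, adjusted p = 0.688), or 0.75 without WT replicates 3 and 4 (limma adjusted p = 0.212), and its dimmer probe set stood at -0.28. Mrps35 read 10.02, 9.34, 10.35 and 10.19 in WT and 10.42, 10.36, 10.30, 10.31 and 10.13 in Ezh2-null leukaemias. Its change was 0.33 (SE 0.19, adjusted p = 0.395), or 0.63 without WT replicates 3 and 4 (adjusted p = 0.252). Mrpl40 went from -0.07 to 0.45 (adjusted p = 0.306) in the same way.

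**Figure D4:**
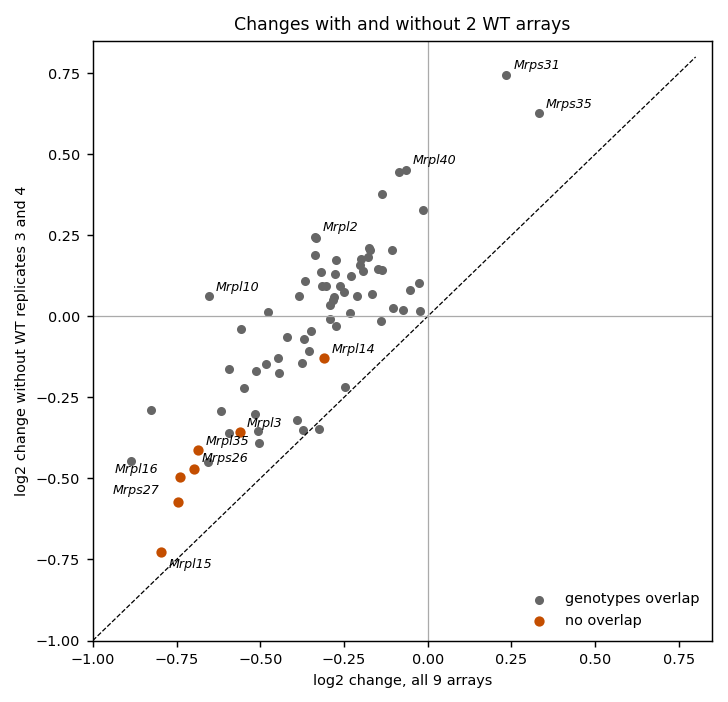
Log2 change of each of the 75 genes with all 9 arrays (x axis) against the change without WT replicates 3 and 4 (y axis), with the dashed line marking equal values and orange points the genes whose genotypes did not overlap. Most points lie above the line and around 0 on the y axis, while Mrpl15, Mrps27, Mrpl16, Mrps26, Mrpl35 and Mrpl3 stay between -0.73 and -0.36.

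Dimmer probe sets of the same genes were less uniform. The 75 genes had 144 single-gene probe sets, 40 genes with 1 and 35 with several. Of the 144, 127 were negative and 35 lower at an unadjusted p under 0.05 (limma, each probe set on its own, against 9.0% of all probe sets), and none was higher. The 69 dimmer probe sets alone had a median of -0.23, with 54 negative and 16 at an unadjusted p under 0.05. The furthest change of the 144 was on a dimmer set of Mrps23, at -1.03 (limma adjusted p = 0.165), where its brightest set stood at -0.17. In 15 of the 35 genes at least 1 probe set had a positive change, among them Mrpl35, where the dimmest read 0.18, and Mrps5, where 2 dimmer sets stood at -0.82 and -0.80 and one at 0.19. Probe sets shared with another gene were left out, and Mrpl53, seen only on a set shared with Ccdc142, was not counted.

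Genes that serve the mitochondrial ribosome without carrying its name were also mostly negative, 46 of 62 (46.7% of all genes were). In limma 0 of the 62 passed, and 14 were lower at an unadjusted p under 0.05, against 8.97% of all genes. In the order of the 5 lists below these were 1 (14.3%), 5 (41.7%), 3 (17.6%), 2 (11.1%) and 3 (37.5%). Without WT replicates 3 and 4, 35 of the 62 were negative, and the medians of the 5 lists below became 0.21, -0.09, 0.08, -0.09 and -0.07 in the order given. Ribosomal proteins with other symbols (Dap3, Ptcd3, Chchd1, Aurkaip1, Gadd45gip1, Mrp63 and Ict1) had a median of -0.18, with Chchd1 at -0.54 (adjusted p = 0.183), Mrp63 at -0.48 and Gadd45gip1 at -0.48. Among 12 translation and insertion factors the median was -0.33 and 5 were lower at an unadjusted p under 0.05 (limma): Oxa1l, which inserts new chains into the inner membrane, stood at -0.66 (adjusted p = 0.0763), the elongation factor gene Tufm at -0.71 and the mRNA-binding gene Lrpprc at -0.75. The 17 mitochondrial tRNA synthetases had a median of -0.19. Their lowest p belonged to Rars2, the arginyl-tRNA synthetase, with 9.98, 9.90, 9.55 and 10.16 in WT and 8.83, 8.84, 9.30, 9.07 and 9.40 in Ezh2-null leukaemias (change -0.81, SE 0.17, adjusted p = 0.0692). Every Ezh2-null array was under every WT array, of which replicate 3 was the lowest and replicate 4 the highest, and Rars2 stood at -0.85 without both. Iars2 stood at -0.80 and Mars2 at -0.57. For 18 assembly factors the median was -0.25, with Ngrn at -0.43, and for 8 genes of mitochondrial DNA upkeep and transcription it was -0.17, with the termination factor gene Mterf at -0.84 (adjusted p = 0.0692), the RNA polymerase gene Polrmt at -0.55 and Tfam, which packages mitochondrial DNA, at -0.40.

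Other mitochondrial genes showed like averages, and cytosolic ribosomal protein genes a smaller one. For 47 nuclear genes of the respiratory chain and ATP synthase the median was -0.29 and 45 were negative, led by Ndufa10 of complex I at -0.64 (SE 0.12, adjusted p = 0.0569). Import and quality control genes had a median of -0.48 over 26 genes, 25 of them negative. At an unadjusted p under 0.05 (limma) 13 were lower (50%, against 8.97% of all genes). The import pore gene Tomm40 stood at -1.25 (limma adjusted p = 0.0669), and the chaperonin genes Hspd1 and Hspe1 at -0.64 and -0.62. Without WT replicates 3 and 4 these 2 lists had medians of -0.10 and -0.12. The 68 cytosolic ribosomal protein genes had a median of -0.05, with 49 negative, and 0.02 without WT replicates 3 and 4. At an unadjusted p under 0.05 (limma) 1 was lower, Rpl8 at -0.27, and 1 higher, Rps4y2 (1.47% each, against 8.97% and 8.2% of all genes). Rps4y2 had the largest change of the list at 1.69 (limma adjusted p = 0.172), with 6.92, 6.66, 6.85 and 6.74 in WT and 9.22, 9.06, 8.76, 9.16 and 6.19 in Ezh2-null leukaemias, where replicate 5 stood below all WT arrays. The mean deviation of the 68 genes was 0.12 on both WT replicates 3 and 4, and -0.11 and -0.03 on replicates 1 and 2. Their probe sets were very bright, at a median percentile of 99.5 of the mean log2 value, against 80.2 for the 75 genes. The median SD within genotype was 0.11, against 0.32 for the 75 genes. The part of brightness in the smaller change was not tested. Of 19 genes of cytosolic ribosome biogenesis all were negative, with a median of -0.48, and -0.15 without WT replicates 3 and 4. The differences between lists were not tested.

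**Figure D5:**
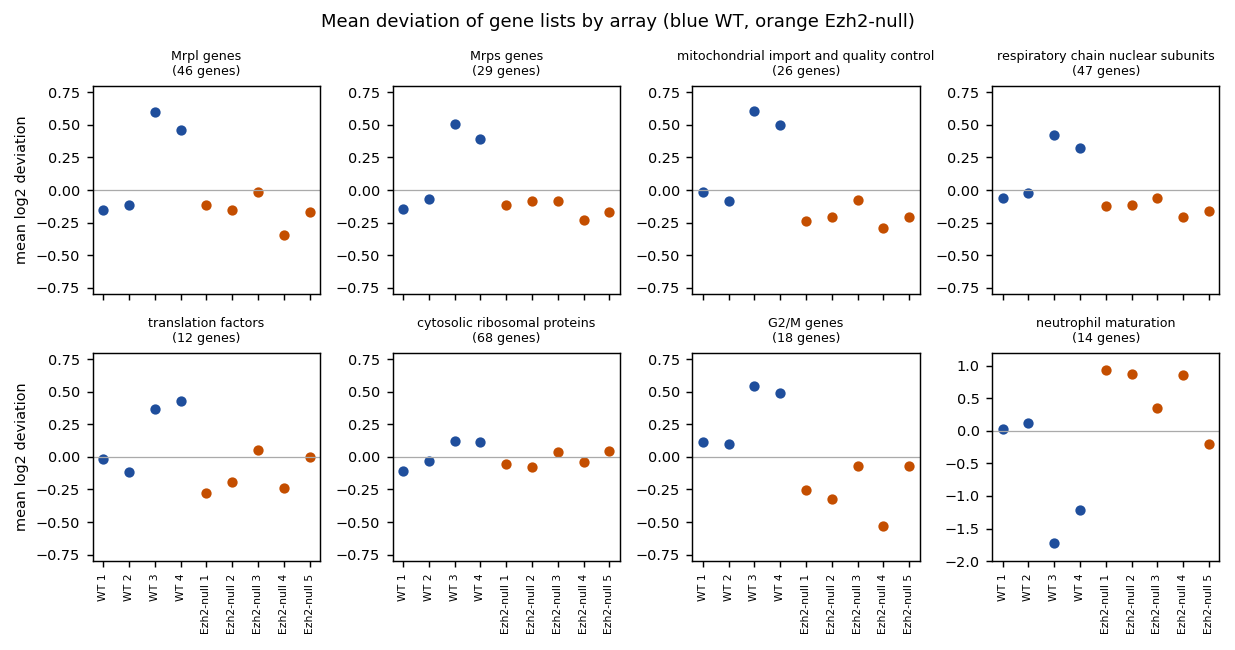
Mean log2 deviation of each gene list from the 9-array mean (y axis) on each array (x axis), with WT in blue and Ezh2-null in orange. The neutrophil panel has a wider axis. In the Mrpl and Mrps panels WT replicates 3 and 4 stand between 0.39 and 0.60 while all other arrays are below 0. In the cytosolic ribosomal protein panel the same 2 arrays stand at 0.12, and in the neutrophil panel they are the lowest.

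Among 10 transcriptional regulators of nuclear genes for mitochondria, 1 passed (0.498% of all genes did). Ppargc1b, the coactivator PGC-1beta, read 7.48, 7.22, 7.66 and 7.64 in WT and 5.42, 5.67, 6.58, 5.77 and 6.61 in Ezh2-null leukaemias. All Ezh2-null arrays were under all WT arrays, WT replicates 3 and 4 did not stand apart, and it fell by 1.49 on the log2 scale (SE 0.26, limma adjusted p = 0.0388), or by 1.34 without WT replicates 3 and 4, where it did not pass (limma adjusted p = 0.194). The call was also lost in 6 of the 9 fits that leave out 1 array, those without WT replicate 3 or 4 or Ezh2-null replicate 1, 2, 3 or 4, where the limma adjusted p reached 0.123 and the change stayed between -1.64 and -1.34 over all 9. Its dimmer probe set stood at -0.21, and the mean of both at -0.85 (limma adjusted p = 0.0901). The others did not pass: Myc stood at -0.09 (adjusted p = 0.882), Nrf1 at -0.10 (0.782), Gabpa of the ETS family at -0.04 (0.910), Yy1 at 0.03 (0.941), Ppargc1a at -0.01 (0.975), Pprc1 at 0.03 (0.976) and Esrra at 0.30 (0.503).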

How the data were processed

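Sorted leukaemic marrow gave 9 RNA samples, 4 WT and 5 Ezh2-null. Each was amplified by a whole-transcriptome method, labelled with biotin and hybridised to 1 array, per the labels' protocols. The deposited intensity values are linear. The submitters' processing notes name RMA, which normally ends in log2 values, so the return to a linear scale is inferred, and log2 was taken here. A second deposited table holds intensity values of the same arrays after ComBat correction with another series, per the file header. It supplied the symbols and an alternative. Another 7 columns, of other samples, stayed out, and 2 values under a floor of 1 were set to it. The sources used here name neither the array nor its annotation build.

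Of 45101 probe sets, 64 controls, 5820 without a gene and 1399 naming several were not used. The 37818 others gave 20680 genes, and the brightest probe set (mean log2 value of the 9 arrays) stood for a gene. No filter or further normalization was applied. Ezh2-null and WT were set against each other with limma 3.58.1 in R 4.3.3 (lmFit, eBayes), genotype as the single term, two-sided p adjusted by Benjamini-Hochberg over all genes, threshold 0.05. In simulated data for Ezh2-null against WT over 20680 genes, 67% of 100 genes changed 2-fold and 95% of 100 changed 4-fold were called. The mean deviation of a list on an array is the mean over its genes of the log2 difference from the 9-array mean. Lists were given no test. The number of arrays limits precision.

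The genes and lists were chosen with earlier results of these data known. Named were the 12 genes with the smallest p among those negative and up to 8 among those positive, the 4 with the highest and 4 with the lowest mean log2 value and the 4 with the largest spread within genotype, Mrps18a, Mrps30 and Mrps36, up to 3 of each other list by p, Ezh2 and Myc. Mean levels of different probe sets were not compared as gene expression. They served only to choose probe sets and named genes and to give the brightness of lists. Head-to-head neighbours, Mrpl12, Mrpl40, Mrpl44, Mrpl45, Mrps5, Mrps12, Mpo, Hoxa9 and the regulators beside Ppargc1b, Esrra and Myc were named after their values were seen. From symbols starting Rpl, Rps or Rplp with a number, 10 S6 kinase genes, which are no ribosomal proteins, were left out after the values were seen. Alternatives were the ComBat table, a filter on dim genes (under the 40th percentile), array weights, quantile normalization, centring on array medians, all probe sets tested singly or averaged per gene, robust variance with an intensity trend, a replicate block, leaving out WT replicates 3 and 4 or each array, and a threshold of 0.1. Promoter windows and neighbours come from RefSeq tables on GRCm38.p6, matched by symbol.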

Additional observations from a re-analysis of the deposited data

Results flagged for a closer look

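In 70 groups of arrays, an array far from the others was looked for. These groups covered part of the named genes, not all, and the scores of 8 gene groups. Rps4y2 was not flagged, although Ezh2-null replicate 5 read 6.19 and the other Ezh2-null arrays read 8.76 to 9.22. Of the 70 groups 2 had such an array, where chance gives about 1 in 20. Ezh2-null replicate 4 was the highest for Mrpl42 at 12.07, with the other Ezh2-null arrays between 11.79 and 11.86. Ezh2-null replicate 1 was the lowest for Mrpl47 at 7.62, with the other Ezh2-null arrays between 8.13 and 8.30. Without Ezh2-null replicate 1 or any other single array the change of Mrpl47 ran from -1.11 to -0.72.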

How the results depend on the processing

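The direction of the average change depended on WT replicates 3 and 4. The median over the 75 mitochondrial ribosomal protein genes was -0.32, stayed between -0.45 and -0.17 with 1 array left out, and was 0.020 without both. Without both, 6 of the 75 were lower and 3 higher at an unadjusted p under 0.05, against 6.26% and 5.64% of all genes. With all arrays 19 were lower and 0 higher, against 8.97% and 8.2%. Without both, 61 genes in all passed (103 with all arrays), and Ezh2 stood at -0.99, not passing. Of the 75 genes 39 then changed sign, from negative to positive, among them Mrpl10 (0.062), Mrpl2 (0.24), Mrpl39 (0.16), Mrpl42 (0.11), Mrpl48 (0.44), Mrpl54 (0.093), Mrpl9 (0.18), Mrps18a (0.12), Mrps18c (0.020) and Mrps36 (0.017). With 1 array left out, 0 to 5 of the 75 passed, 14 to 34 had an unadjusted p under 0.05, 17 to 330 genes passed in all, Ezh2 ran from -1.53 to -1.17, and 14 of the 75 crossed 0, among them Mrpl2 (-0.57 to 0.00098), Mrpl48 (-0.38 to 0.13), Mrps31 (-0.071 to 0.46) and Mrps36 (-0.052 to 0.034). The 5 that passed without WT replicate 1 were Mrpl18, Mrpl3, Mrpl35, Mrps10 and Mrps27 (1.17% of all genes passed), and the 2 without WT replicate 2 were Mrpl16 and Mrpl47 (1.6%). In all 9 fits that leave out 1 array, 14 of the 75 kept an unadjusted p under 0.05 and a negative change. Each of these fits still holds WT replicate 3 or 4 or both. Shares of all genes at an unadjusted p under 0.05 are not given here for these fits or for array weights. Array weights, which gave WT replicates 1 and 2 the lowest weights (0.417 and 0.504), passed 13 of the 75, all lower, and 1007 genes in all (4.87%), with 45 of the 75 at an unadjusted p under 0.05 and Mrps31 at -0.031. The batch-adjusted table passed 1 of the 75 and 202 genes in all, with Mrps36 at 0.034. A threshold of 0.1 passed 6 and 488. Testing every probe set passed 0 of 144 and 162 in all, with 35 of the 144 lower at an unadjusted p under 0.05 (9.0% of all probe sets were). Sign changes also came with the mean of probe sets (Mrps31 at -0.025) and quantile normalization (Mrpl48 at 0.0075, Mrps36 at 0.082). The replicate number did not pair the arrays, with correlations of deviations of -0.05, 0.09, 0.13 and -0.14. With the replicate block, which leaves Ezh2-null replicate 5 without a partner and so out of the contrast, 0 of the 75 passed, 135 genes passed in all and Ezh2 stood at -1.26, not passing (limma adjusted p = 0.0815). The causes of these changes were not tested. Intensities give no count of molecules, and small changes on dim probe sets are not resolved by 9 arrays.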
